A study of Homo sapiens with 66 samples.

Results

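The proteasome subunit genes are the 48 protein-coding genes whose symbol is PSM, 1 letter from A to G and a number, out of 57992 gene identifiers counted and 19629 protein-coding genes among them. They comprise 7 alpha subunits and 7 constitutive beta subunits of the 20S core, 3 immunoproteasome subunits, 2 tissue-restricted core subunits, 6 ATPases and 11 non-ATPase subunits of the 19S regulator, 7 assembly chaperones, the 2 interferon-inducible activator subunits of PA28, and 3 other activators or inhibitors. Pseudogenes, antisense genes and genes that carry a PSM symbol with a further suffix, 53 in all, were left out. RNA was sequenced from 11 acute myeloid leukaemia (AML) cell lines, each untreated or treated for 24 hours with etoposide. Etoposide is a topoisomerase II poison that leaves DNA breaks unsealed. Whether the untreated cells received vehicle is not stated in the study. Growth media differed between lines, with granulocyte-macrophage colony stimulating factor listed for F-36P only. Each line received its own IC50, the concentration that lowered viability to the midpoint, so that the dose differed from line to line and rose in the order OCI-AML2, MOLM-13, NB-4, HL-60, OCI-AML3, THP-1, MV-4-11, NOMO-1, MONO-MAC-6, KASUMI-1 and F-36P. Each group has 3 libraries, 66 in all, and each library holds RNA from 3 pooled wells. The study's methods call its replicates biological in general and do not say whether these pools came from separate cultures. P-values for a single line, or for a difference between lines, measure the spread between these libraries. Those for the mean over lines and for the IC50 rest on 1 value per line. In such bulk RNA, fewer cells of a kind and less RNA per cell cannot be told apart.

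The 26S proteasome degrades proteins tagged with ubiquitin. Its 20S core is a barrel of alpha and beta rings in which PSMB5, PSMB6 and PSMB7 hold the cutting sites, and its 19S cap binds, unfolds and feeds in the substrate. In blood cells and under interferon, PSMB8, PSMB9 and PSMB10 take the place of these 3 cutting subunits, which gives the immunoproteasome, a core whose peptides suit presentation on HLA class I. PA28, made of PSME1 and PSME2, opens the same core without the cap. NFE2L1 is the transcription factor known for restoring subunit levels when proteasome activity is short.

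Reads on genes ranged from 17997404 to 24101670 per library, and the 48 genes took 0.45% to 0.787% of them. CDKN1A, the cyclin-dependent kinase inhibitor that p53 induces, was higher with etoposide in 10 of 10 lines, with a mean log2 fold change of 3.33 ± 0.29 SE (adjusted p = 5.44e-05), and 0.73 in OCI-AML2. MDM2, the other gene chosen to check the treatment, was above 0 in 7 of 10 lines. Its mean was 0.64 ± 0.26 SE (adjusted p = 0.0646 by limma over the 10 lines) and not called. The etoposide libraries of OCI-AML2 were discarded in the study for failing read quality control, so that line is given apart and 10 lines enter the etoposide comparisons. The myeloid markers PTPRC, CD33 and SPI1 were above 30 CPM (the count of a gene scaled to the same total in each library) in all 11 lines. The erythroid markers GATA1 and KLF1 were highest in F-36P, at 253 and 231 CPM, where MPO, a granulocyte enzyme, was 0.976 CPM. An overlapping gene on the same strand covers all bases of the main transcript of PSMA2, 81.4% of PSMA6, 67.0% of PSMA1 and 56.1% of PSMB10 and 28.8% of PSMD9, where reads on shared bases would not be counted, so the levels of these 5 members are uncertain, and 17 members have named pseudogenes that could share reads.

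Promoter windows from RefSeq (GRCh38.p14, 250 bases before to 50 after a transcript start) exist here for 42 of the 48 genes, in 51 entries. They were searched on both strands for 2 copies of GAAA with 2 bases of any kind between them, the core of the interferon-stimulated response element (ISRE), and TTCNNNGAA, the gamma-activated site (GAS). The ISRE core was in 7 of the 42 genes, namely PSMB8, PSMB10, PSME1, PSME2, PSMG4, PSMB4 and PSMA4. It was in 13.7% of the members' 51 entries and in 3.57% of all 35116 promoter entries. The immunoproteasome and PA28 windows are shown because these are the interferon-inducible members. They run from 200 bases before to 30 after the start, with ISRE and GAS letters in capitals. Apart from PSMB9, none of these genes was called in the mean response to etoposide over 10 lines. PSMB8 has 2 entries, and the one without either motif is not shown.
PSMB8, second start, chr6:32844018-32844247, minus strand: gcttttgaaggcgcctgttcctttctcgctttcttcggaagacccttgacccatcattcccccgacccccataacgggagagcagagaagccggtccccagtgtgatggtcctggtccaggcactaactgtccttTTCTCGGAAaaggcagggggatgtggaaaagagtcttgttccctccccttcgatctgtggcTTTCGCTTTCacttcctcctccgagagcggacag
PSMB9, chr6:32853992-32854221, plus strand: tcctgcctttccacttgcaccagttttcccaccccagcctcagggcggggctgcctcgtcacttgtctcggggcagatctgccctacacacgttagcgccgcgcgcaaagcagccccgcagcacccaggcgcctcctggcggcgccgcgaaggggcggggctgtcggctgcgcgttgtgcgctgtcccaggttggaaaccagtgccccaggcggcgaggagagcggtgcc
PSMB10, chr16:67936821-67937050, minus strand: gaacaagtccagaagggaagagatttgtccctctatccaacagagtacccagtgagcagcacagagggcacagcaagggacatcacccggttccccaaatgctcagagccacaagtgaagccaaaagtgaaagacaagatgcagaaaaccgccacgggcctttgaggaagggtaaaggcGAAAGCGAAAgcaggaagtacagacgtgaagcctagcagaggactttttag
PSME1, chr14:24135994-24136223, plus strand: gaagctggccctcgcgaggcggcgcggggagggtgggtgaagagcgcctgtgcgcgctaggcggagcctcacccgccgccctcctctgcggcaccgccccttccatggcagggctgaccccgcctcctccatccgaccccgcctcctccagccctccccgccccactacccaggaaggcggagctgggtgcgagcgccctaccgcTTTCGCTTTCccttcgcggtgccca
PSME2, chr14:24146581-24146810, minus strand: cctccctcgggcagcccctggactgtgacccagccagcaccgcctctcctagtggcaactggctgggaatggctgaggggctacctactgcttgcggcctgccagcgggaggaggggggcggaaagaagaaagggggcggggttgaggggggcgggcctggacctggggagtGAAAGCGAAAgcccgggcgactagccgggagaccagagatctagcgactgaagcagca
The ISRE core lies at positions -21 to -12 of PSMB10 and -28 to -19 of PSME2, read on the strand of the gene, and at -4 to 5 of PSMB8 and 5 to 14 of PSME1, read on the opposite strand, with 0 as the first transcribed base. PSMB8 also holds the GAS letters at -65 to -57. The PSMB9 window holds neither motif. The gencode model of PSMB9 begins at base 32844136 of chromosome 6, and that start has no window here. In RefSeq, PSMB9 starts at base 32854192 and TAP1, the antigen peptide transporter gene, starts 487 bases away on the other strand. The interval between them holds 2 overlapping ISRE cores, at chr6:32853823-32853838, 354 bases before the PSMB9 start and outside its window. The GAS letters were in 8 of the 42 genes, in 15.7% of the members' entries and in 7.66% of all entries. The other letters searched were TGACNNNGC of the antioxidant response element and CCAAT. They were in 15 and 20 of the 42 genes, in 29.4% and 39.2% of the members' entries and in 13.3% and 34.6% of all entries. A match describes the letters of a window and not the binding of a factor.

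Before treatment, most proteasome genes were expressed within a narrow range over the 11 lines. With CPM on TMM library sizes over the 33 untreated libraries, the SD between lines of log2(1 + CPM) had a median of 0.34 over the 47 members that averaged 1 CPM or more and of 0.57 over all 13667 such genes. The highest line exceeded the lowest by a median of 1.83-fold among the 7 alpha subunits and 2.06-fold among the 7 constitutive beta subunits. Among the 6 ATPases it was 2.20-fold, and among the 11 non-ATPase subunits 2.09-fold. Apart from PSMA6, whose level is uncertain, PSMD3 and PSMD11, both scaffold subunits of the cap, differed least between the highest and the lowest line, from 162 CPM in THP-1 to 235 CPM in KASUMI-1 and from 109 CPM in OCI-AML2 to 160.0 CPM in KASUMI-1. Only 1 of the 10 neighbouring pairs in the order of PSMD3 did not overlap over its libraries.

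The exceptions were an assembly chaperone missing from 1 line, a testis gene present in 3 lines, and a chaperone several-fold higher in F-36P. PSMD5, chosen here after its values were seen, guides assembly of the ATPase ring, and HL-60 had 0.0972, 0.0965 and 0 CPM of it, from 4 reads over 3 libraries, near the 3 reads that a count of 0 allows. The other 10 lines had 16.7 CPM, in THP-1, to 72.9 CPM, in MOLM-13. PSMA8, an alpha subunit that takes the place of PSMA7 in the testis, had 14.3, 13.0 and 13.6 CPM in MV-4-11, 14.6, 13.2 and 12.9 CPM in NOMO-1 and 5.73, 7.70 and 7.51 CPM in F-36P. The other 8 lines had 0 to 3 reads of PSMA8 over their 3 libraries, and a count of 0 allows up to 0.052 CPM there. PSMB11, the beta subunit of the thymus, had 28 reads over all 66 libraries and was not tested.

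PSMG1, which pairs with PSMG2 to build the alpha ring, had 467, 508 and 448 CPM in F-36P, against a mean of 36.5 CPM in NOMO-1 to 99.0 CPM in KASUMI-1 among the other lines. F-36P was 4.80-fold above the next line. PSMF1, the inhibitor PI31 and also chosen after its values were seen, ran from 42.9 CPM in THP-1 to 223 CPM in F-36P, with 6 of the 10 neighbouring pairs free of overlap. The library spread was a small part of these differences, as the plot of untreated levels of these 4 genes shows.

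**Figure D1:**
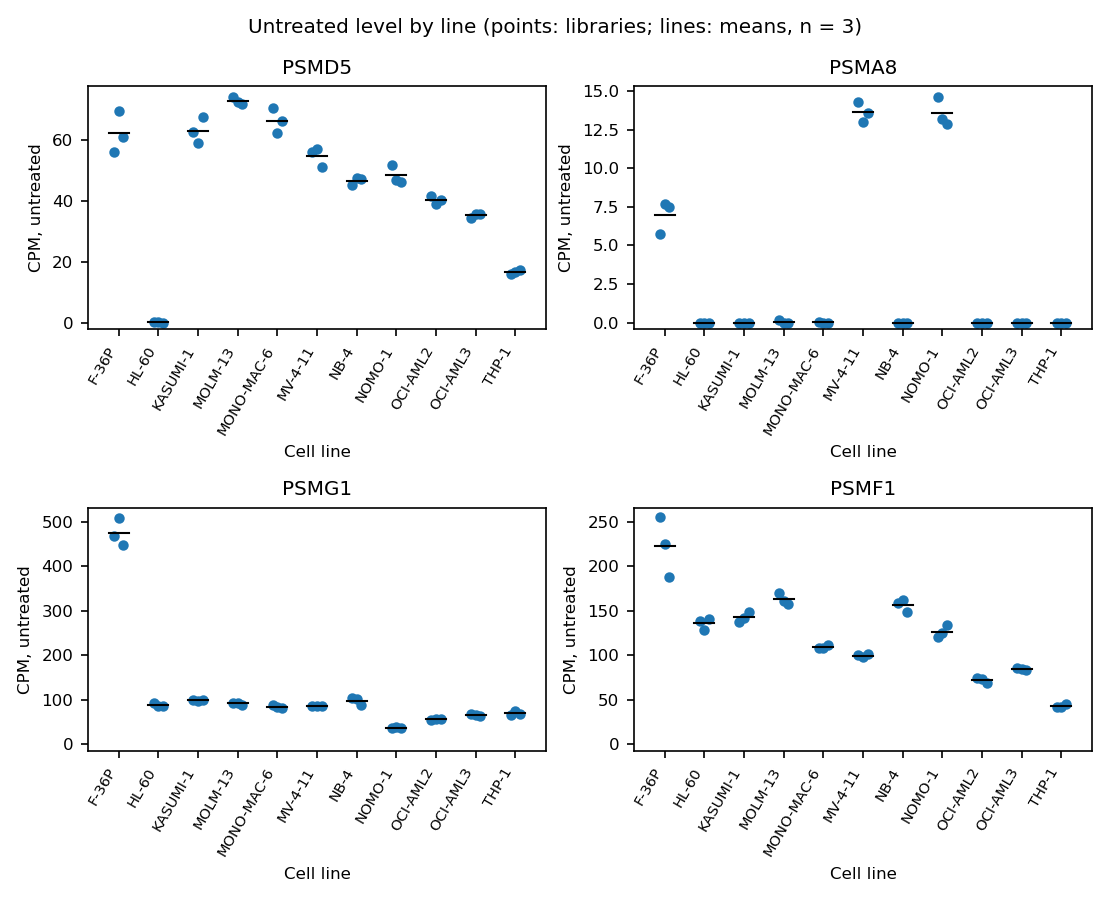
Untreated level of PSMD5, PSMA8, PSMG1 and PSMF1 in each cell line, in CPM on TMM library sizes over 33 libraries, with 1 point per library and a line at the mean of 3. HL-60 lies at 0 for PSMD5, only F-36P, MV-4-11 and NOMO-1 lie above 1 CPM for PSMA8, and F-36P lies above 400 CPM for PSMG1.

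PSMB9 and PSMB8 had the widest range of the members that all lines express, and PSMB10 came next after PSMG1. PSMB9 ranged from 0.245 CPM in KASUMI-1, where 3 libraries held 14 reads, to 31.6 CPM in THP-1. PSMB8 ranged from 5.93 CPM in KASUMI-1 to 87.7 CPM in THP-1, and PSMB10 from 8.15 CPM in F-36P to 60.6 CPM in THP-1. The order of PSMB9 was THP-1, NOMO-1, HL-60, MONO-MAC-6, OCI-AML2, OCI-AML3, MV-4-11, MOLM-13, F-36P, NB-4 and KASUMI-1, and 7 of its 10 neighbouring pairs did not overlap over their libraries. THP-1, a monocytic line, was the highest for all 3 genes.

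Set against their constitutive counterparts in CPM per kilobase of the main transcript, PSMB8 and PSMB9 were the minor form in every line. PSMB10 was also measured below PSMB7 in every line. The ratio of PSMB9 to PSMB6 in untreated cells was 0.295, 0.302 and 0.288 in the THP-1 libraries and 0.00403, 0.00256 and 0.0025 in those of KASUMI-1, with a median of 0.0767 over the 11 lines. The ratio of PSMB8 to PSMB5 ran from 0.0365 in KASUMI-1 to 0.574 in THP-1, with a median of 0.314. PSMB10 to PSMB7 ran from 0.0361 in F-36P to 0.535 in THP-1, but the level of PSMB10 is uncertain. Reads on the 56.1% of its transcript shared with another gene would not be counted. Its ratio could therefore be too low and does not show which form was minor. With etoposide the ratio of PSMB9 to PSMB6 was 0.22, 0.174 and 0.258 in F-36P, against 0.0193, 0.0167 and 0.0237 without it. Its mean was higher with the drug in all 11 lines, but hardly so in OCI-AML2 at 0.111 against 0.109, a difference within the spread of its libraries.

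Whether the untreated level of a proteasome gene followed the IC50 was asked by the correlation of log2(1 + CPM) with log2(1 + IC50) over the 11 lines. No member passed an adjusted p of 0.05, and neither did any of the 13667 genes tested. Without adjustment, 9 members correlated positively and 5 negatively at p under 0.05, against 7.41% and 6.95% of all genes. PSME4, the activator PA200 that opens the core for acetylated histones, had r = 0.89 (permutation p = 0.00989, adjusted p = 0.269, n = 11) and rho = 0.37 (permutation p = 0.262, adjusted p = 0.855). PSMB2, a beta subunit without a cutting site, had r = 0.88 (permutation p = 0.0098, adjusted p = 0.269, n = 11) and rho = 0.63 (permutation p = 0.0447, adjusted p = 0.85). PSMG1 had r = 0.83 (permutation p = 0.031), PSMD13 had 0.80 (permutation p = 0.00974) and PSMC3 had 0.72 (permutation p = 0.0373). All 5 were highest in F-36P, the line with the highest IC50 and the erythroid markers. The part of that lineage in the correlation was not tested. The study's IC50 for F-36P lies above the highest etoposide concentration of its viability assay. Without F-36P alone, r was 0.46 for PSME4, 0.45 for PSMB2, 0.17 for PSMG1, 0.40 for PSMD13 and 0.086 for PSMC3.

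At the other end, PSMD14, the deubiquitinase of the cap, had r = -0.84 (permutation p = 0.00181, adjusted p = 0.256, n = 11) and rho = -0.62 (permutation p = 0.0476, adjusted p = 0.85). PSMA2 had r = -0.84 (permutation p = 0.0083), PSMD7 had -0.66 (permutation p = 0.0144), PSMB10 had -0.62 (permutation p = 0.0247) and PSMG4 had -0.60 (permutation p = 0.0456). F-36P and KASUMI-1 are the 2 lines farthest from the median IC50, and without them r was -0.15 for PSME4, 0.27 for PSMB2, -0.10 for PSMG1 and -0.34 for PSMD14. These relations were thus weaker or reversed without those lines. Leaving them out also narrows the IC50 range, which can itself lower r. PSMD14 had r = -0.67 (permutation p = 0.0394, adjusted p = 0.732) when only F-36P was left out. Without F-36P alone, 1 member was positive and 3 were negative at an unadjusted p under 0.05, against 3.49% and 3.08% of all genes. No member passed even the unadjusted limit over the remaining 9 lines. PSMD7, the partner of PSMD14, kept r = -0.70 (permutation p = 0.0505, adjusted p = 0.95, n = 9).

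The immunoproteasome genes stood apart from the positive end. All 3 had a negative r with the IC50, at -0.49 for PSMB8, -0.41 for PSMB9 and -0.62 for PSMB10, and their p-values for PSMB8 and PSMB9 were 0.125 and 0.204 by permutation. Without F-36P and KASUMI-1 the r of PSMB8 and PSMB9 turned to 0.34 and 0.36. Of the constitutive beta subunits 5 of 7 had a positive r, of the ATPases 4 of 6 and of the non-ATPase subunits 7 of 11, with medians of 0.44, 0.22 and 0.11. The alpha subunits were split, 3 of 7 positive, with a median of -0.20. Over the 47 members the median r was 0.11, against -0.021 over all genes. PSMA7, PSMB2, PSMC3, PSMC4, PSMD2, PSMD6, PSMD8, PSMD13 and PSME4 belong to a list that the study drew from these same libraries for following the IC50, so their direction is not independent evidence.

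**Figure D2:**
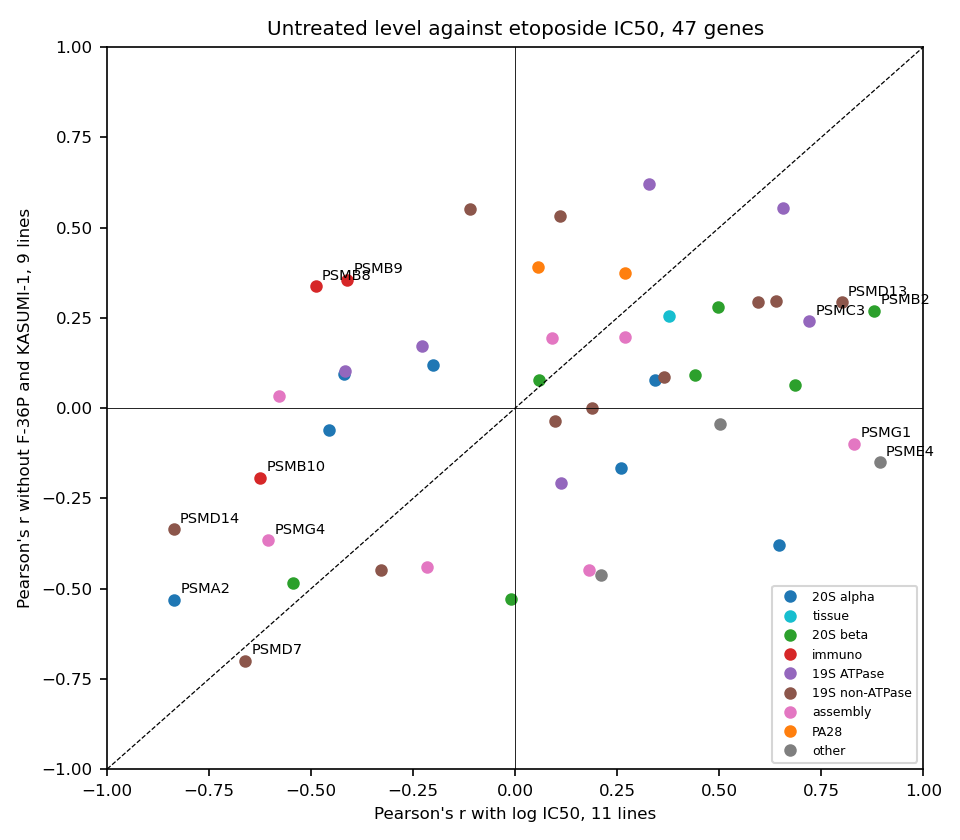
Pearson's r of the untreated level with the log IC50 for 47 proteasome genes over 11 lines (x axis) and over the 9 lines without F-36P and KASUMI-1 (y axis), with 1 point per gene coloured by its role. PSME4 and PSMG1 lie far right and just below 0 on the y axis, while PSMD7 lies near the dashed line of equal values.

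With etoposide, most proteasome genes that changed were lower, by less than 2-fold. Over the 10 lines, 462 pairs of a member and a line were tested, and at an adjusted p under 0.05 (edgeR's quasi-likelihood test, adjusted over all genes of the line) 197 pairs were lower and 37 higher. Over all genes 24.4% of pairs were lower and 27.7% higher. The median log2 fold change was -0.17 over the members' pairs and 0.011 over those of all genes, and 70.3% of the members' pairs lay below 0 against 49.1%. With a fold change above 2 asked as well, 6 pairs were lower and 3 higher, against 3.96% and 11.1% of all pairs. With library size alone in place of TMM, which moved the median of all genes to 0.11, 141 pairs were lower and 62 higher, so that lower calls were 69.5% of the members' calls in place of 84.2%. The calls of all genes moved from 46.9% to 35.3% lower between the same scalings.

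The lines differed widely in how many members moved. 35 of 46 members were lower and 0 higher in MOLM-13, against 28.1% and 28.1% of all its genes, and 34 of 47 members were lower and 1 higher in MV-4-11, against 30.4% and 33.5% of all its genes. In MOLM-13 the members' median log2 fold change was -0.41, and their share of all reads, which need not follow the number of members called, was 0.596% ± 0.00373 (SD, n = 3) without the drug and 0.453% ± 0.00287 with it. The libraries of both groups also did not overlap in MV-4-11, KASUMI-1 and OCI-AML3, where the share was lower with etoposide, and in THP-1, where it was higher (0.65% ± 0.00709 without and 0.684% ± 0.012 with it). They overlapped in NB-4, F-36P and NOMO-1, where the mean share was lower, and in MONO-MAC-6 (0.601% ± 0.0146 without and 0.612% ± 0.0039 with it) and HL-60 (0.551% ± 0.0318 without and 0.566% ± 0.0243 with it), where it was higher. 25 of 46 members were lower and 6 higher in NB-4, against 28.7% and 31.0% of all its genes. 24 of 46 members were lower and 7 higher in KASUMI-1, against 28.6% and 31.5% of all its genes. 24 of 46 members were lower and 7 higher in MONO-MAC-6, against 30.5% and 31.8% of all its genes. In these lines a lower level of several core and cap genes went together with a higher level of a few others. 17 of 47 members were lower and 3 higher in F-36P, against 25.0% and 35.0% of all its genes. 15 of 47 members were lower and 6 higher in NOMO-1, against 23.9% and 28.8% of all its genes. 11 of 45 members were lower and 4 higher in HL-60, against 15.0% and 17.5% of all its genes. In F-36P, NOMO-1 and HL-60 the share of members called higher lay below that of all genes, as in the lines above. 7 of 46 members were lower and 2 higher in OCI-AML3, against 17.7% and 22.4% of all its genes. 5 of 46 members were lower and 1 higher in THP-1, against 16.0% and 16.1% of all its genes. THP-1 alone had a members' median at or above 0, 0.020, under TMM, and with library size alone F-36P joined it at 0.046, where the median of all its genes was 0.34.

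**Figure D3:**
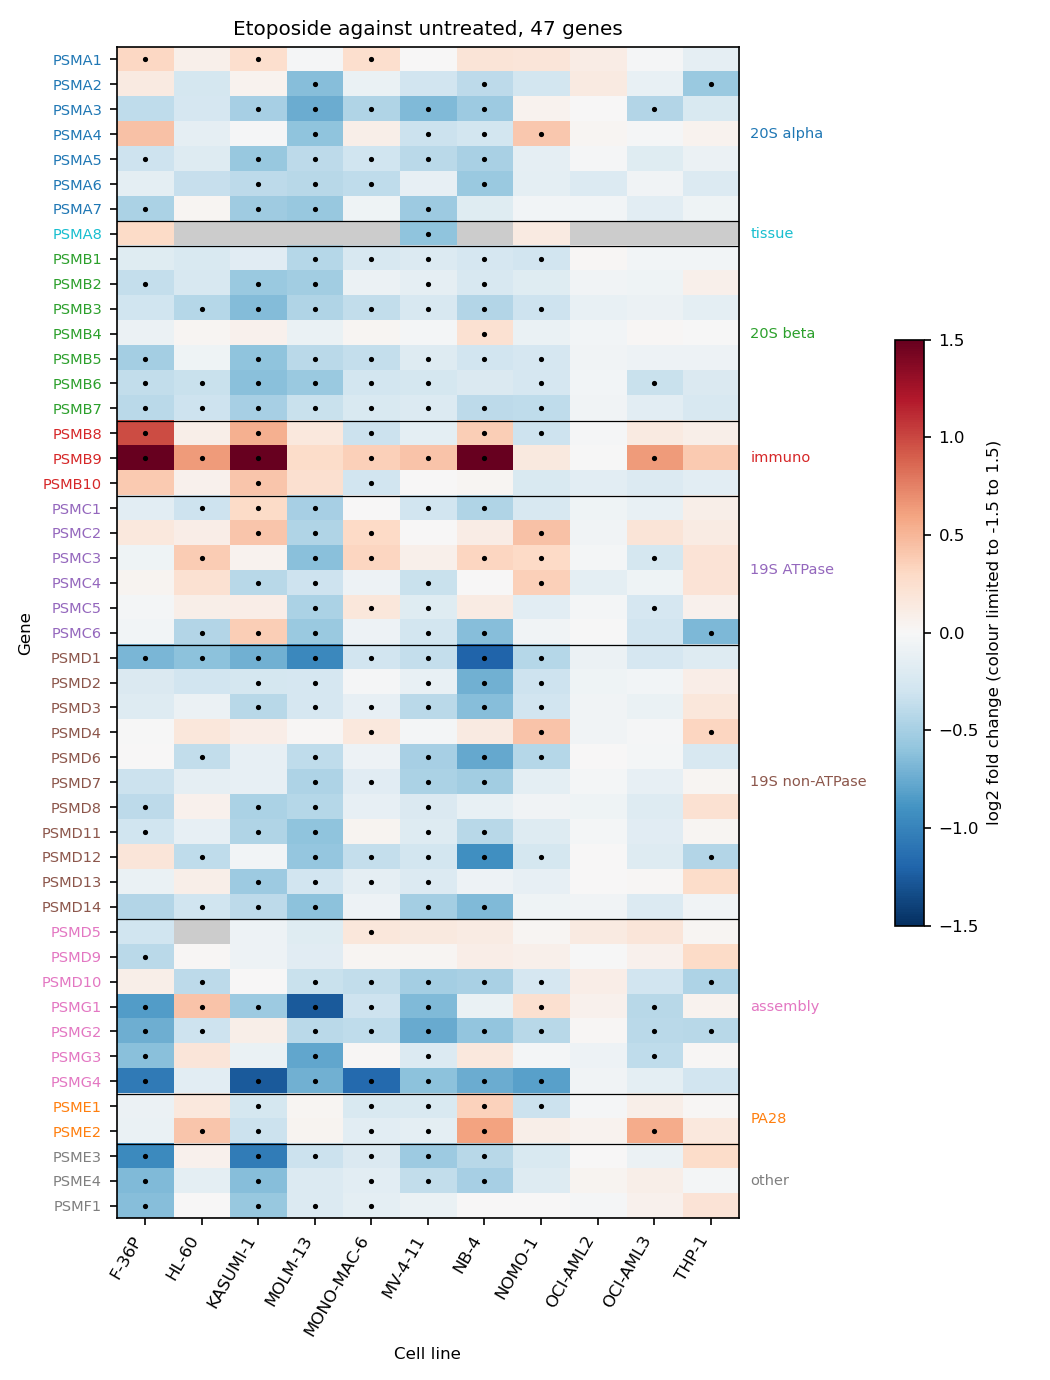
Log2 fold change of 47 proteasome genes (rows, grouped by role) in 11 cell lines (columns), etoposide against untreated, with a dot where the adjusted p was under 0.05 and grey where the gene was not tested. PSMB9 holds the 3 highest values, in F-36P, KASUMI-1 and NB-4, the MOLM-13 column holds 35 dots, all lower, and the OCI-AML2 column holds none.

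Averaged over the 10 lines, 25 of the 45 members with a value in each line were lower and 1 was higher (limma on 1 log2 fold change per line, adjusted p under 0.05 over 10588 genes), against 26.1% and 18.8% of all genes. Of the constitutive beta subunits 6 of 7 were lower, with a median of -0.28 over the 7. PSMB5, the chymotrypsin-like subunit and the target of bortezomib, had a mean of -0.28 ± 0.070 SE (adjusted p = 0.00706), PSMB6, the caspase-like subunit, -0.34 ± 0.062 SE (adjusted p = 0.00112), and PSMB7, the trypsin-like subunit, -0.31 ± 0.057 SE (adjusted p = 0.00117). PSMB6 and PSMB7 were below 0 in 10 of 10 lines and called lower in 8 each. PSMB7 in MOLM-13 read 144, 140.1 and 141 CPM without the drug and 105, 114 and 118 CPM with it (log2 fold change -0.33 ± 0.068 SE, n = 3 against 3, adjusted p = 0.00222). Its groups did not overlap there. PSMB4 was the exception, with a mean of 0.0050 ± 0.056 SE (adjusted p = 0.949).

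Of the alpha subunits 5 of 7 were lower, among them PSMA3 with a mean of -0.42 ± 0.079 SE (adjusted p = 0.00153), the lowest of the ring. PSMA2 and PSMA6, also among the 5, and PSMA1 have uncertain levels because of overlapping genes. PSMA1 and PSMA4 were not called, at 0.11 ± 0.063 SE (adjusted p = 0.165) and -0.038 ± 0.10 SE (adjusted p = 0.773). Of the ATPases, which unfold the substrate, 1 of 6 was lower, PSMC6 at -0.27 ± 0.10 SE (adjusted p = 0.0476), and their median was -0.045. In single lines 18 of their 60 pairs were lower and 11 higher. PSMC2 had 0.14 ± 0.084 SE (adjusted p = 0.192) and was called higher in 3 lines and lower in MOLM-13. PSMC3 was called higher in 4 lines and lower in 2, with a mean of 0.069 ± 0.10 SE (adjusted p = 0.595). Of the non-ATPase subunits 8 of 11 were lower, with a median of -0.24. Their ubiquitin receptor PSMD4 was not called, at 0.13 ± 0.064 SE (adjusted p = 0.117), and was higher in 3 single lines and lower in none. With library size alone, where the median mean of all genes was 0.076, 10 of 45 members in place of 25 were lower on average and 4 in place of 1 higher, against 16.7% and 27.2% of all genes under that scaling. The medians of the groups were then -0.15 for the alpha subunits, -0.17 for the beta subunits, 0.065 for the ATPases and -0.13 for the non-ATPase subunits, so that the ATPases changed sign.

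PSMD1, a large scaffold subunit of the cap, fell most among the structural subunits, with a mean of -0.57 ± 0.10 SE (adjusted p = 0.00107), and was below 0 in 10 of 10 lines and called in 8. In NB-4 it was 170.2, 133 and 119.9 CPM without the drug and 68.3, 57.8 and 58.6 CPM with it (log2 fold change -1.20 ± 0.12 SE, n = 3 against 3, adjusted p = 7.34e-07). MOLM-13 had 158, 154 and 169.8 CPM without the drug and 91.1, 68.3 and 86.9 CPM with it (log2 fold change -0.97 ± 0.10 SE, n = 3 against 3, adjusted p = 3.35e-05). In both lines each treated library was under each untreated one. In F-36P the untreated libraries of PSMD1 ran from 165 to 338 CPM and overlapped the treated ones, although the change was called at -0.68 ± 0.23 SE (adjusted p = 0.0239).

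**Figure D4:**
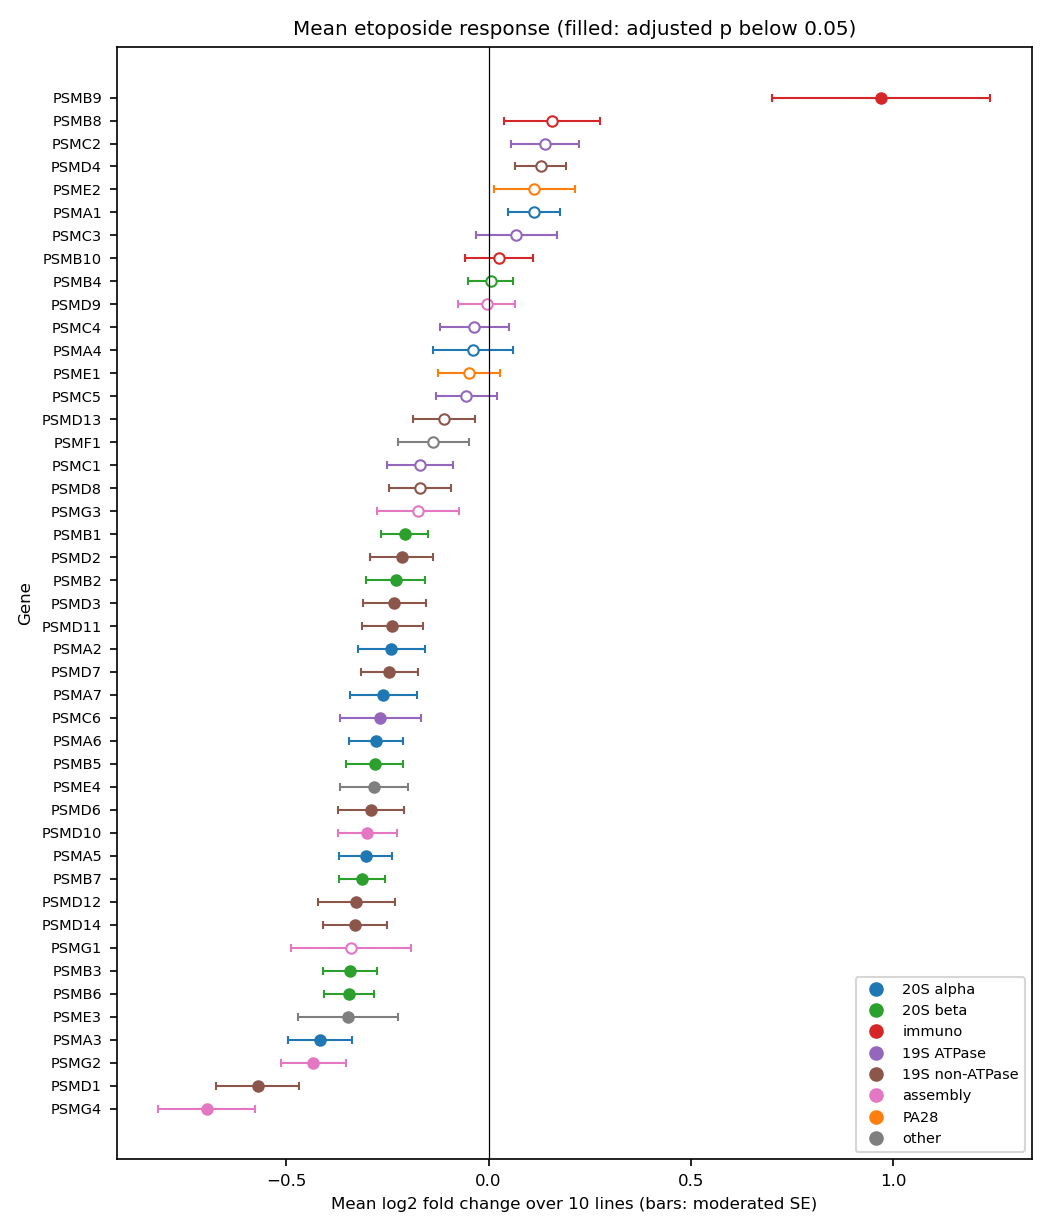
Mean log2 fold change over 10 lines of the 45 proteasome genes with a value in each line, ordered from low to high, with bars for the moderated SE and filled points where the adjusted p was under 0.05. PSMB9 lies alone near 0.97 on the right, PSMG4 lies lowest near -0.70, and 25 filled points lie left of 0.

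The assembly chaperones held the largest falls. PSMG4, which with PSMG3 supports alpha ring assembly, had the lowest mean of all members at -0.70 ± 0.12 SE (adjusted p = 0.000844), was below 0 in 10 of 10 lines, and was lower by more than 2-fold in KASUMI-1, MONO-MAC-6 and F-36P. These are the lines classed as resistant in the study, and the difference between them and the other lines was not tested. KASUMI-1 had 20.5, 21.1 and 21.6 CPM without the drug and 9.95, 7.99 and 8.41 CPM with it (log2 fold change -1.26 ± 0.11 SE, n = 3 against 3, adjusted p = 1.20e-05). MONO-MAC-6 had 22.4, 28.4 and 25.0 CPM without the drug and 11.5, 11.9 and 10.3 CPM with it (log2 fold change -1.17 ± 0.10 SE, n = 3 against 3, adjusted p = 1.18e-06). F-36P had 15.6, 15.6 and 13.3 CPM without the drug and 7.06, 6.49 and 7.75 CPM with it (log2 fold change -1.06 ± 0.14 SE, n = 3 against 3, adjusted p = 0.000135). In all 3 lines the groups were far apart. PSMG4 was smallest in change in HL-60, OCI-AML3 and THP-1, at -0.15, -0.14 and -0.29, where it was not called. PSMG2 had a mean of -0.43 ± 0.081 SE (adjusted p = 0.00141) and was called lower in 9 of 10 lines, all but KASUMI-1 at 0.091.

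PSMG1, the partner of PSMG2, followed it in part. PSMG1 was below 0 in 7 of 10 lines, called lower in 6 and called higher in 2. In MOLM-13 it was 89.7, 89.2 and 83.9 CPM without the drug and 35.9, 36.6 and 37.5 CPM with it (log2 fold change -1.26 ± 0.069 SE, n = 3 against 3, adjusted p = 9.70e-07). F-36P, with its high untreated level, had 473, 543 and 491 CPM without the drug and 305, 286 and 253 CPM with it (log2 fold change -0.84 ± 0.11 SE, n = 3 against 3, adjusted p = 0.000127). In both lines the treated libraries lay below the untreated ones. HL-60 went the other way, with 97.8, 90.4 and 90.9 CPM without the drug and 122, 113 and 141 CPM with it (log2 fold change 0.43 ± 0.10 SE, n = 3 against 3, adjusted p = 0.00451), and NOMO-1 was also called higher, at 0.23 ± 0.091 SE (adjusted p = 0.0465). The mean over lines was -0.34 ± 0.15 SE (adjusted p = 0.0782) and not called, and PSMG1 had the largest interaction F of all members, described further on. PSMG3 was called lower in 4 lines, and its mean was -0.17 ± 0.10 SE (adjusted p = 0.177). PSMD10, the oncoprotein gankyrin, had -0.30 ± 0.073 SE (adjusted p = 0.00631), and PSMD9 -0.0046 ± 0.070 SE (adjusted p = 0.962). PSMD5 was 0, 0 and 0.0945 CPM in HL-60 with etoposide, and was called higher in MONO-MAC-6 alone, at 0.17 ± 0.059 SE (adjusted p = 0.022).

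Among the activators, PSME3, the nuclear PA28 gamma that degrades p21 and other cell cycle proteins without ubiquitin, had a mean of -0.35 ± 0.12 SE (adjusted p = 0.037). KASUMI-1 had 256, 242 and 256 CPM without the drug and 129.7, 114 and 119 CPM with it (log2 fold change -1.05 ± 0.079 SE, n = 3 against 3, adjusted p = 3.96e-06), and F-36P had 336, 304 and 285 CPM without the drug and 159, 155 and 159.9 CPM with it (log2 fold change -0.96 ± 0.11 SE, n = 3 against 3, adjusted p = 3.81e-05). These 2 lines lost the most of it, without overlap. THP-1 had 188, 173 and 183 CPM without the drug and 214, 239 and 206 CPM with it (log2 fold change 0.28 ± 0.12 SE, n = 3 against 3, adjusted p = 0.074), where the treated libraries lay above the untreated ones and the change was not called. PSME4 had a mean of -0.28 ± 0.084 SE (adjusted p = 0.0172) and PSMF1 -0.14 ± 0.088 SE (adjusted p = 0.225).

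PSME1 and PSME2, the 2 subunits of PA28 and neighbours on chromosome 14, had means near 0, -0.048 ± 0.076 SE (adjusted p = 0.628) and 0.11 ± 0.10 SE (adjusted p = 0.37), and lines moved in opposite directions. PSME2 in OCI-AML3 had 188, 174 and 183 CPM without the drug and 263, 277 and 262 CPM with it (log2 fold change 0.56 ± 0.060 SE, n = 3 against 3, adjusted p = 0.00021). NB-4 had 108, 124 and 102 CPM without the drug and 167, 172 and 168 CPM with it (log2 fold change 0.60 ± 0.090 SE, n = 3 against 3, adjusted p = 3.60e-05). HL-60 was the third line called higher, at 0.41 ± 0.087 SE (adjusted p = 0.00285). KASUMI-1 went down, with 92.6, 99.2 and 98.3 CPM without the drug and 72.5, 85.8 and 73.5 CPM with it (log2 fold change -0.32 ± 0.090 SE, n = 3 against 3, adjusted p = 0.011), and MONO-MAC-6 and MV-4-11 were also called lower, at -0.15 and -0.15. PSME1 was higher in NB-4, at 0.35 ± 0.082 SE (adjusted p = 0.00176), and lower in KASUMI-1, MONO-MAC-6, MV-4-11 and NOMO-1, at -0.26, -0.23, -0.23 and -0.33.

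PSMB9 was the one member higher on average, with a mean of 0.97 ± 0.27 SE (adjusted p = 0.012) and an SD of 0.98 over lines, above 0 in 10 of 10 lines and called in 7. In F-36P it was 2.99, 2.72 and 3.06 CPM without the drug and 23.7, 20.5 and 31.2 CPM with it (log2 fold change 3.10 ± 0.19 SE, n = 3 against 3, adjusted p = 2.36e-06), a rise of 8.60-fold. NB-4 had 2.13, 2.24 and 3.32 CPM without the drug and 7.96, 8.22 and 8.25 CPM with it (log2 fold change 1.67 ± 0.18 SE, n = 3 against 3, adjusted p = 1.41e-06). KASUMI-1 had 0.305, 0.21 and 0.219 CPM without the drug and 0.916, 1.09 and 1.10 CPM with it (log2 fold change 2.05 ± 0.31 SE, n = 3 against 3, adjusted p = 0.000316). These were the 3 lines with the least PSMB9 before treatment, and each treated library lay above each untreated one. Lineage markers were called with etoposide in the same lines, but not in these alone. Of the 4 myeloid markers, MV-4-11 had 4 called higher and 0 lower, OCI-AML3 3 and 0, and MOLM-13 2 and 1. HL-60, MONO-MAC-6, NOMO-1 and THP-1 had 1 called higher and 1 lower each. In F-36P the erythroid markers KLF1 and GATA1 were lower, with log2 fold changes of -1.35 and -0.56, and of the 4 myeloid markers PTPRC was lower (-1.01). The untreated libraries of PTPRC ran from 202 to 583 CPM there and overlapped the treated ones. In KASUMI-1 MPO was lower (-1.04) and PTPRC and CD33 higher (1.92 and 0.71), and in NB-4 MPO and SPI1 were lower (-1.94 and -0.30) and PTPRC and CD33 higher (0.67 and 0.28). The summed level of the 4 myeloid markers was between 505 and 857 without the drug and between 480.3 and 515 CPM with it in F-36P, between 25556 and 28943 without the drug and between 12797 and 14345 CPM with it in KASUMI-1 and between 15481 and 18195 without the drug and between 4476 and 5032 CPM with it in NB-4. The number of genes with reads was between 20999 and 21285 without the drug and between 29738 and 30168 per library with it in F-36P, between 19654 and 19932 without the drug and between 24884 and 25445 with it in KASUMI-1 and between 19501 and 19760 without the drug and between 21308 and 21581 with it in NB-4. The part of these values in the PSMB9 result was not tested. F-36P after etoposide was near HL-60, which rose from 16.3 ± 2.27 to 25.3 ± 3.14 CPM (SD, n = 3, on each line's own scaling), while KASUMI-1 stayed near 1 CPM.

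The smaller rises of PSMB9 were 0.64 ± 0.15 SE (adjusted p = 0.0092) in OCI-AML3, 0.63 ± 0.13 SE (adjusted p = 0.00299) in HL-60, 0.42 ± 0.11 SE (adjusted p = 0.00256) in MV-4-11 and 0.35 ± 0.10 SE (adjusted p = 0.0114) in MONO-MAC-6. MOLM-13, NOMO-1 and THP-1 were above 0 and not called, at 0.28 ± 0.14 SE (adjusted p = 0.104), 0.15 ± 0.11 SE (adjusted p = 0.251) and 0.39 ± 0.15 SE (adjusted p = 0.0531), and THP-1 passed under 8 of the 12 other settings, while MONO-MAC-6 lost its call without etoposide replicate 2. Over the 7 lines other than F-36P, KASUMI-1 and NB-4, a choice made after the values were seen, the mean was 0.41 with an SD of 0.18, from 0.15 to 0.64. A change and the untreated level it is taken from share libraries, so no correlation between them is given.

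PSMB8, which lies near PSMB9 in the HLA region, moved in both directions. It was higher in F-36P, with 19.8, 17.0 and 19.2 CPM without the drug and 36.7, 29.1 and 44.5 CPM with it (log2 fold change 0.98 ± 0.17 SE, n = 3 against 3, adjusted p = 0.000565), and in KASUMI-1 and NB-4, at 0.54 and 0.37. It was lower in MONO-MAC-6, with 54.4, 56.9 and 59.3 CPM without the drug and 46.2, 47.1 and 42.8 CPM with it (log2 fold change -0.33 ± 0.062 SE, n = 3 against 3, adjusted p = 0.000663), and in NOMO-1, at -0.31. In MONO-MAC-6 PSMB9 rose while PSMB8 and PSMB10 fell, the latter at -0.28 ± 0.076 SE (adjusted p = 0.00671). PSMB10 was otherwise called in KASUMI-1 alone, higher at 0.42 ± 0.16 SE (adjusted p = 0.0468) with overlapping groups, and the means of PSMB8 and PSMB10 were 0.16 ± 0.12 SE (adjusted p = 0.298) and 0.026 ± 0.085 SE (adjusted p = 0.817), neither called.

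**Figure D5:**
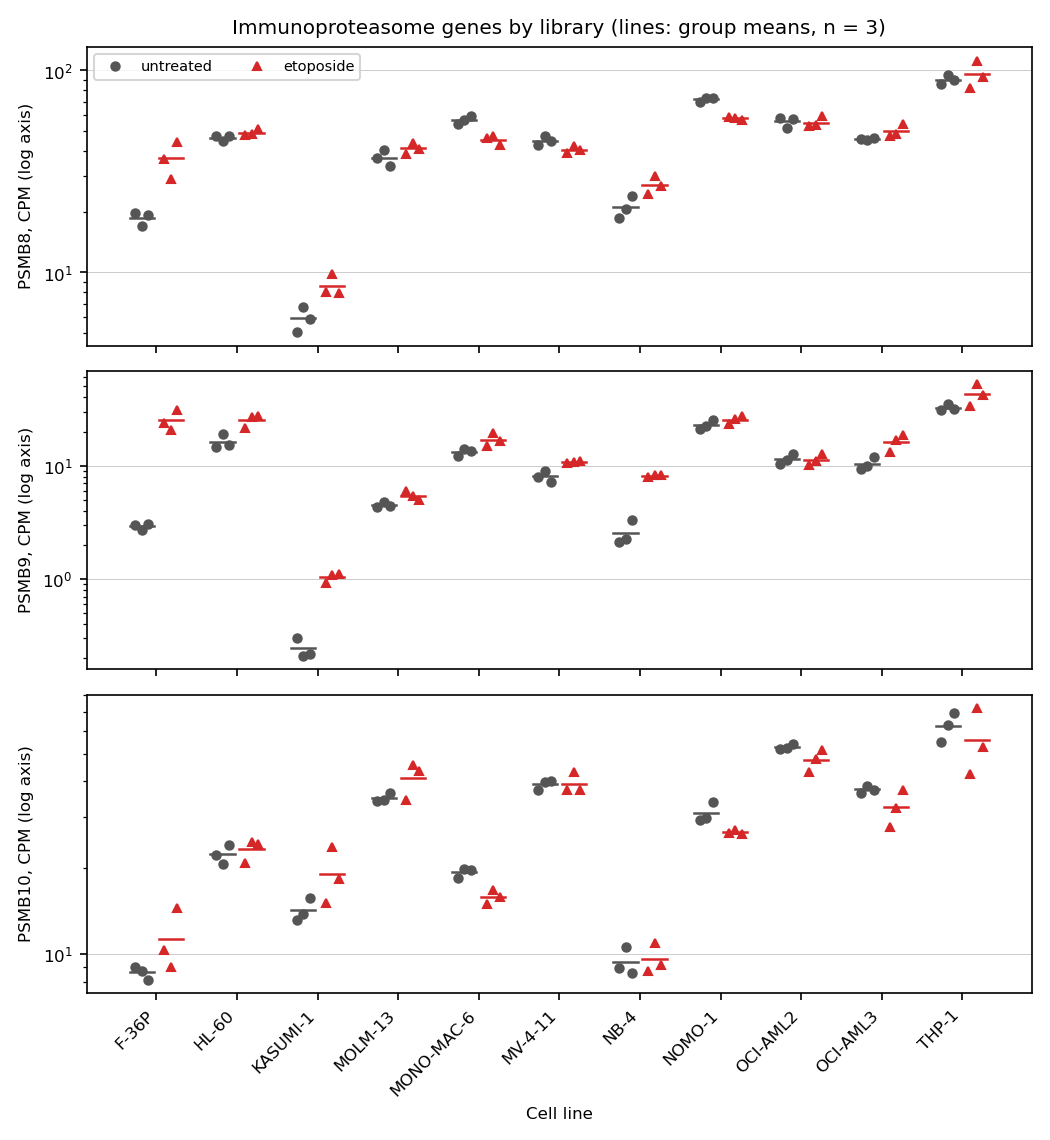
PSMB8, PSMB9 and PSMB10 in CPM on a log axis in each of 66 libraries, untreated as grey circles and etoposide as red triangles, with lines at the mean of 3, scaled within each cell line. The treated points of PSMB9 lie above the untreated ones in F-36P, KASUMI-1 and NB-4 by more than 2-fold, while those of PSMB8 lie below in MONO-MAC-6 and NOMO-1.

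The response differed between lines for 40 of the 47 members tested (interaction F-test in edgeR over 60 libraries, adjusted p under 0.05), against 74.5% of all 19974 genes, so the members' share, though higher, was not far from that of all genes. PSMG1 (F = 37.2, adjusted p = 6.97e-18) and PSMB9 (F = 35.0, adjusted p = 2.24e-17) had the largest F, followed by PSME3 (F = 22.0, adjusted p = 1.27e-13), PSME2 (F = 17.0, adjusted p = 1.09e-11) and PSMB8 (F = 14.5, adjusted p = 1.63e-10). At the other end, PSMB6 (F = 1.42, adjusted p = 0.24) and PSMB7 (F = 1.70, adjusted p = 0.137), cutting subunits of the standard core, were not called, and PSMB3, PSMB4, PSMA6, PSMA8 and PSMD9 were not either. A p that misses the threshold leaves a difference between lines possible for these 7.

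The partners of the proteasome, 19 genes for its transcription factors, chaperones, deubiquitinases and ubiquitin shuttles, had more members lower than higher under TMM. Of these, 9 were lower on average and 1 higher, against 26.1% and 18.8% of all genes, with a median of -0.20 against -0.034 over all genes. With library size alone, 7 were lower and 5 higher, with a median of -0.090. RAD23B, a shuttle that brings ubiquitin chains to the cap, had -0.64 ± 0.075 SE (adjusted p = 0.000121), UCHL5, a deubiquitinase of the cap, -0.53 ± 0.084 SE (adjusted p = 0.000568), and DDI2, the protease that activates NFE2L1, -0.40 ± 0.10 SE (adjusted p = 0.00712). NFE2L1 itself was above 0 in 8 of 10 lines and not called, at 0.20 ± 0.082 SE (adjusted p = 0.0645), and NFE2L2, its relative of the oxidative stress response, had 0.33 ± 0.13 SE (adjusted p = 0.058). PAAF1, an inhibitor of cap and core association, was the one called higher, at 0.25 ± 0.077 SE (adjusted p = 0.0216).

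The genes of HLA class I presentation and interferon signalling had more members higher than lower. Of 17, 15 had a value in each line, 10 were higher and 2 lower on average, against 18.8% and 26.1% of all genes, with a median of 0.56. With library size alone, 11 were higher and 1 lower. STAT2 and HLA-B, a transducer of the interferon signal and a class I heavy chain, led with 0.91 ± 0.12 SE (adjusted p = 0.000224) and 0.87 ± 0.11 SE (adjusted p = 0.000193), and TAP1 followed at 0.82 ± 0.21 SE (adjusted p = 0.00867). CALR and PDIA3, chaperones that load class I molecules but serve all secretory proteins, were lower, at -0.66 ± 0.17 SE (adjusted p = 0.00877) and -0.31 ± 0.11 SE (adjusted p = 0.0391), and TAPBP was not called, at 0.10 ± 0.093 SE (adjusted p = 0.421). IRF1, an interferon-induced activator of PSMB9 and TAP1, had 0.65 ± 0.14 SE (adjusted p = 0.0028). The interferon genes IFNG and IFNA1 were too low to test in any line. IFNB1 was tested in F-36P alone and called higher (log2 fold change 4.34 ± 0.71 SE, n = 3 against 3, adjusted p = 0.00044). It had 0, 0.116 and 0.0556 CPM there without the drug, near the floor, and 1.36, 0.604 and 1.83 CPM with it. Its part in the PSMB9 and TAP1 values was not tested. TAP1, which shares its start region with PSMB9, rose most in F-36P, with 7.04, 8.11 and 6.51 CPM without the drug and 50.1, 24.7 and 75.3 CPM with it (log2 fold change 2.8 ± 0.35 SE, n = 3 against 3, adjusted p = 7.80e-05). TAP1 was also called higher in KASUMI-1 and NB-4, at 1.00 and 0.63, beside 2.05 and 1.67 for PSMB9, whereas OCI-AML3 had 1.12 for TAP1 and 0.64 for PSMB9.

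In OCI-AML2, 0 of 46 members were called by edgeR, with 2 at an unadjusted p under 0.05 and 0 called by DESeq2, against 0.0221% of all genes higher and 0.00% lower, and the members' log2 fold changes lay between -0.20 and 0.14. PSMB9 was 10.3, 11.2 and 12.6 CPM without the drug and 10.2, 11.1 and 12.7 CPM with it, and PSMG4 22.3, 24.0 and 26.6 CPM without the drug and 22.0, 22.6 and 25.9 CPM with it. Both pairs of groups overlapped. Since these etoposide libraries were discarded in the study, the values describe the libraries and not the sensitivity of the line.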

How the data were processed

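RNA was sequenced from 66 libraries of 11 cell lines with a stranded poly(A) kit. The authors used STAR 2.5.3a with genome GRCh38.p7 and its gencode annotation, and deposited raw counts per gene, 17997404 to 24101670 per library, with the strand setting of the count column not given in the sources used here. Of 672 genes lying wholly inside 1 exon of a gene on the opposite strand, 449 had reads, which counting without strand would leave at 0. Of 58037 identifiers listed, 45 copies on the pseudoautosomal part of Y, with 0 reads, were left out.

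The proteasome members and all lists were chosen with earlier results of these data known. Each cell line was fitted with edgeR 4.0.16 (filterByExpr, TMM, quasi-likelihood test, Benjamini-Hochberg adjustment over all genes of the line, threshold 0.05), the mean over 10 lines was tested with limma 3.58.1, and the difference between lines with an interaction F-test in edgeR. Levels were correlated with log2(1 + IC50), the IC50 values being those of the study, for genes averaging 1 CPM or more, with 100000 permutations. Counts of a few reads carry counting error beyond the SD, and the floor of 3 reads covers counting error only. The genes named were those of the immunoproteasome, PA28 and the 3 replaced subunits, members past a fold change of 2 in a line, the 5 highest and 5 lowest in mean response and in r, PSMA8, PSMB11, and from the lists the 3 highest and 3 lowest with TAP1, NFE2L1 and IRF1. PSMD5, PSMF1, PSMD3, PSMD11, PSMB3, PSMB4, PSMA1, PSMA4, PSMA6, PSMC6, PSMG3, PSMD9, PSMD10, TAPBP, IFNG, IFNA1 and IFNB1 were named after their values were seen. Same-numbered libraries deviated together, with a correlation over 0.1 for each of the 3 pairs, in NB-4, MOLM-13, OCI-AML2 and MONO-MAC-6. Alternatives were DESeq2 1.42.0, RLE scaling, library size alone, no filter, 1 fit of 60 libraries, a replicate block, leaving out each replicate, and for the IC50 Spearman's rho, other scales and minimums, and leaving out lines. On simulated counts of MV-4-11 with 13893 genes, edgeR recovered 58 of 83 genes changed 1.5-fold and 79 of 82 changed 2.8-fold. The simulation gave every gene the same dispersion, so it does not describe lines with noisier libraries. In a simulation of 4 lines, the interaction test recovered 11 of 50 genes changed 1.5-fold in MV-4-11 alone and 39 of 50 changed 2.8-fold.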

Additional observations from a re-analysis of the deposited data

Results flagged for a closer look

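The response to etoposide differed between the 10 lines, by the edgeR interaction F, for 21 of the members named. The largest F values were 37.2 for PSMG1, 35.0 for PSMB9, 22.0 for PSME3, 17.0 for PSME2, 14.5 for PSMB8 and 12.9 for PSMG4. PSMG2 had 9.86, PSMC3 9.05, PSME1 8.68, PSMD13 7.03 and PSMB2 5.65. PSMA3 had 4.72, PSMD1 4.51, PSMB10 3.70, PSME4 3.64, PSMB5 3.56 and PSMD7 3.40. The smallest were 3.15 for PSMC2, 2.40 for PSMD14, 2.34 for PSMA2 and 2.20 for PSMD4. Over all genes 74.5% differed between lines by the same test, so these members are not set apart by it.

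In 2 members, 1 line stood away from the other 9. PSMC2 had a log2 fold change of -0.45 in MOLM-13, the only line below 0, and PSMG2 had 0.091 in KASUMI-1, the only line above 0. Chance flags about 1 in 20 such groups.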

How the results depend on the processing

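The 9 changes above 2-fold kept their direction and an adjusted p under 0.05 under the 12 alternatives to the etoposide fits. With library size alone, the members lower by more than 2-fold numbered 3, those higher at any fold 62, and in the mean over lines 4 were higher and 10 lower, the mean of PSME1 turned to 0.061, and the PSMG1 ratio of F-36P over NOMO-1 was 11.5. The members correlated with the IC50 at an unadjusted p under 0.05 were 1 positive and 2 negative with Spearman's rho and 7 positive and 3 negative with the untransformed IC50. They were 1 and 3 without F-36P, and 0 and 0 without F-36P and KASUMI-1 by either coefficient. PSMG1 and PSME4 then had r of -0.099 and -0.15, and rho of -0.30 and -0.15, the rho without both lines being chosen after seeing the data. The mean of PSMB10, never called, turned to -0.014 without F-36P and to -0.0070 and -0.034 without 1 replicate, with leave-one-out values from -0.034 to 0.10. The cause of these moves was not tested.

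Leaving out 1 replicate gave 3 to 4 members higher and 6 to 7 lower by more than 2-fold, 30 to 37 higher and 175 to 192 lower at any fold, 21 to 25 lower in the mean, and 7 to 9 positive and 4 to 6 negative with the IC50. With the replicate number as a block, 37 pairs were higher and 195 lower, and 3 and 6 passed 2-fold. In the lines where the numbers pair the libraries, the block gave 1 higher and 36 lower in MOLM-13, 8 and 27 in MONO-MAC-6, and 7 and 27 in NB-4. DESeq2 gave 37 higher and 204 lower. Depth limits PSMB9 in KASUMI-1, with 14 reads over 3 untreated libraries, and PSMD5 in HL-60, with 4.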

Other observations

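PSMD5 was nearly absent from HL-60 while its neighbours on chromosome 9 were not. FBXW2 and PHF19, within 200 kb of it, had 123 and 122 CPM in untreated HL-60, inside the range of the other 10 lines.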
